A study of Mus musculus with 6 samples.

Results

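Small leucine-rich proteoglycans are secreted matrix proteins built from leucine-rich repeats, and 10 of their genes were followed here among 56748 genes in the deposited count table. The genes were Dcn, Bgn and Aspn of class I, Lum, Fmod, Prelp, Omd and Kera of class II, Ogn of class III and Podn of class V. They were taken by symbol, and the family was chosen by earlier PLEA against Saline values of these same libraries, in which Dcn was among the genes with lower counts after PLEA. Values from that contrast are therefore a description, and nothing is supported with them. The data were 6 bulk RNA-seq libraries, 3 labelled Saline and 3 labelled PLEA, made from the infarcted cortex of wild-type male C57 mice. All mice had a photothrombotic stroke of the left hemisphere, in which laser light (532 nm, 250 mW, a spot of 1.5 mm, 5 minutes) closes vessels after an agent given intravenously at 100 mg/kg. Saline or PLEA nanoparticles (100 µL) followed 2 hours later by tail vein, and all libraries are labelled Day 3. No sham or unlesioned tissue was analysed here. The labels do not spell out PLEA, give no age, and do not say that replicates were separate animals, so p-values measure only the spread between these libraries, and how much of it is technical is not known.

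Members of this family bind collagen and set the spacing and thickness of its fibrils. Decorin and biglycan carry chondroitin or dermatan sulfate chains, while lumican, fibromodulin and keratocan can carry keratan sulfate. Several also bind growth factors of the TGF-beta family, and soluble biglycan and decorin can signal through Toll-like receptors. In the brain, fibroblasts of the meninges and around vessels are the best known source, and such cells take part in scars after injury.

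CPM below is a gene's count scaled to a common library total. Total counts ranged from 16810448 to 17516434 per library. Cortical neuron markers were present in every library, with a mean of 878 CPM in Saline and 930 CPM in PLEA for Slc17a7, the vesicular glutamate transporter of cortical excitatory neurons, named after its values were seen. Striatal projection neuron markers summed to 239 to 2279 CPM in Saline and to 1044 CPM or more in PLEA, so the pieces differed in how much striatal RNA they held. Saline replicate 1 had the highest summed level of the fibroblast, mural, endothelial, astrocyte, microglia and infiltrating myeloid marker lists. In bulk tissue, fewer cells of a type and less RNA per cell cannot be told apart.

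Most of these genes lie in clusters, which the deposited coordinates show. Dcn (chromosome 10, bases 97315471 to 97354005), Lum (97400990 to 97408565) and Kera (97442741 to 97449554) follow each other on the plus strand, with 0 other protein-coding genes lying wholly between neighbours. Aspn (chromosome 13, bases 49697919 to 49721041), Omd (49735938 to 49746298) and Ogn (49761522 to 49777977) form another run on the plus strand. All 3 lie inside the span of the opposite-strand gene Cenpp, which had 7 to 25 counts per library. Its exons share 0 bases with those of Ogn and Omd and 7 with those of Aspn in GENCODE M21. Prelp (chromosome 1, bases 133838042 to 133849152, minus strand) and Fmod (133964992 to 133976015, plus strand) are neighbours 115839 bases apart. Bgn lies on chromosome X (72527208 to 72539539) and Podn on chromosome 4 (107871988 to 107953642).

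RefSeq promoter windows matched 8 of the 10 members, all but Dcn and Lum. Those of Ogn, Aspn and Fmod are shown because their groups were separate in the counts, and that of Prelp, the neighbour of Fmod, because its groups were not. The sequences are from GRCm38.p6, from 250 bases before to 50 bases after the start site, written along the gene's strand. In the order shown they lie at chr13:49607765-49608064 (plus strand), chr13:49544193-49544492 (plus strand), chr1:134037004-134037303 (plus strand) and chr1:133921352-133921651 (minus strand). Capitals mark matches on either strand to TATAAA (the TATA box), to CCAAT (the CCAAT box), to GGGCGG (the GC box) or to TGANTCA (the AP-1 site).
Ogn: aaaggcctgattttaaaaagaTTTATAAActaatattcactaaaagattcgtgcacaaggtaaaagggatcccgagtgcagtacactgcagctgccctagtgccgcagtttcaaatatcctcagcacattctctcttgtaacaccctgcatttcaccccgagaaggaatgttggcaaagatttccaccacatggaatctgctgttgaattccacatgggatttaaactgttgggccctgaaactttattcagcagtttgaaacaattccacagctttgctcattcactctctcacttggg
Aspn: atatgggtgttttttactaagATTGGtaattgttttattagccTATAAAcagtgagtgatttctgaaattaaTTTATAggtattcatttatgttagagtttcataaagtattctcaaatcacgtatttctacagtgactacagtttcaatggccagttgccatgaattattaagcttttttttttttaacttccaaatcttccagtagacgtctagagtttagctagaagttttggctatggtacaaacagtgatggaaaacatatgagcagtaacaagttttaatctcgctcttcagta
Fmod: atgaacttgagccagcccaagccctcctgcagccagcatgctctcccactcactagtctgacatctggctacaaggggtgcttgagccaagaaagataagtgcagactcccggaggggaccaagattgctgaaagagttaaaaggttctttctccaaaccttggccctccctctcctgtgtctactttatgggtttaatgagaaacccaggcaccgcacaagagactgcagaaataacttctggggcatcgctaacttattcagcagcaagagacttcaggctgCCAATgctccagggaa
Prelp: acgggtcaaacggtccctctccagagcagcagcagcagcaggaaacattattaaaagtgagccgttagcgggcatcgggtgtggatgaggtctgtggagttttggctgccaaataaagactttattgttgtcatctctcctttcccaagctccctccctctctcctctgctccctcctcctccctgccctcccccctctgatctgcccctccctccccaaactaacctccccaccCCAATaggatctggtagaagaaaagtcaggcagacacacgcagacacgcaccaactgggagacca
In the Ogn window TATAAA matches on both strands in overlapping letters that begin at base -229 from the start, and 13.6% of 32851 mouse promoter windows hold that motif. Fmod has its CCAAT match at base 35 and Prelp at base -15, and 37.4% of windows hold this motif. Aspn has TATAAA matches at bases -207 and -178 and a CCAAT match at base -229. The windows of Ogn, Aspn, Fmod and Prelp were 42.3%, 31.0%, 51.0% and 55.3% G or C, against a median of 52.7% over all windows. Over the 8 members with a window, TATAAA occurred for Ogn and Aspn, CCAAT for Aspn, Fmod, Prelp and Kera, GGGCGG for Bgn and Podn (35.7% of all windows), and TGANTCA for 0 genes (7.81% of all windows). These matches describe letters in the windows and were not tested as binding sites.

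By group mean per length, fibromodulin led these transcripts in Saline and PRELP in PLEA, neither clear of all others. In CPM per kilobase, Fmod was at 8.97 ± 1.79 in Saline (SD, n = 3), followed by Ogn at 5.85 ± 0.520, Bgn at 4.74 ± 2.14, Prelp at 4.39 ± 0.552 and Dcn at 4.10 ± 1.61. A lower tier held Lum at 1.84 ± 1.41, Podn at 0.925 ± 0.392, Omd at 0.884 ± 0.331 and Aspn at 0.813 ± 0.162 CPM per kilobase in Saline. The Saline ranges of Fmod (6.91 to 10.1) and Bgn (2.65 to 6.93) overlapped, and Bgn ranked above Fmod in Saline replicate 1. Every Saline value of Fmod was above every Saline value of Ogn (5.27 to 6.27). From Ogn down to Aspn every pair of neighbours in that order overlapped, so the order of those neighbours is not separated from the spread. In PLEA the level per kilobase was 4.82 ± 0.480 for Prelp, 4.58 ± 1.50 for Fmod, 2.51 ± 0.495 for Bgn, 2.16 ± 0.890 for Ogn and 1.47 ± 0.190 for Dcn, with the ranges of Prelp and Fmod overlapping. By group mean Prelp was the fourth among the members in Saline and the first in PLEA. Kera was the lowest in all libraries. Over the means of all 6 libraries, 4 of 10 members held the same rank when CPM was not divided by length.

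Decorin (Dcn), a class I member that binds collagen and TGF-beta, had 34.5 CPM in Saline replicate 1, 20.6 in replicate 2 and 16.6 in replicate 3, whereas the PLEA replicates, in the same order, had 8.77, 9.61 and 7.42 CPM. Values of the other genes are given in that order too. All PLEA libraries lay below all Saline libraries, and Saline replicate 1 stood highest. Its log2 fold change of PLEA over Saline was -1.48 (SE 0.27). Biglycan (Bgn), its closest relative, was at 42.3, 16.2 and 28.3 CPM in Saline and 18.8, 13.3 and 13.8 CPM in PLEA. Here Saline replicate 2 fell within the PLEA range, so the groups overlapped. The log2 fold change of Bgn was -0.91 (SE 0.32), and -0.52 without Saline replicate 1.

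Asporin (Aspn), a class I member that lacks the usual chain attachment site, was far less abundant, at 2.34, 1.62 and 1.78 CPM in Saline and 1.50, 0.848 and 1.23 CPM in PLEA. The groups did not overlap, but the gap between PLEA replicate 1 and Saline replicate 2 was small, at 26 against 28 counts. Its log2 fold change was -0.68 (SE 0.35). At its lowest count of 15, counting error alone was 25.8%.

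Fibromodulin (Fmod), a class II member that guides early collagen fibril assembly, was at 22.8, 32.9 and 33.3 CPM in Saline and 20.7, 11.1 and 13.6 CPM in PLEA. Saline replicate 1, which was highest for Dcn and Bgn, was the lowest Saline library for Fmod. The groups did not overlap, and the log2 fold change was -0.97 (SE 0.25). Lumican (Lum), which also carries keratan sulfate and regulates fibril thickness in the cornea, was at 8.49, 2.25 and 2.76 CPM in Saline and 2.48, 2.54 and 1.17 CPM in PLEA. Only Saline replicate 1 stood above the PLEA range by a wide margin. The log2 fold change of Lum was -1.12 (SE 0.55) and -0.27 without that library. At its lowest count of 21, counting error alone was 21.8%.

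Osteomodulin (Omd), first known from bone matrix, was at 1.29, 2.77 and 1.90 CPM in Saline and 1.33, 1.30 and 1.12 CPM in PLEA. Saline replicate 1 lay inside the PLEA range, and the log2 fold change was -0.67 (SE 0.37), or -0.36 without Saline replicate 2. Its counts were as low as 20 per library, a counting error of 22.4%. Keratocan (Kera), the member best known from the cornea, had 0 counts in every Saline library, and 5, 0 and 2 counts across the PLEA libraries. A count of 0 allows up to 3 counts, or 0.173 to 0.184 CPM in Saline, for counting error only, and Kera was below the filter for testing.

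PRELP (Prelp), which binds collagen and, through a basic amino-terminal stretch, heparan sulfate, did not follow its neighbour Fmod. It was at 14.6, 18.2 and 14.8 CPM in Saline and 16.7, 16.2 and 19.4 CPM in PLEA, with overlapping groups. The log2 fold change was 0.14 (SE 0.16), and it lay between 0.05 without PLEA replicate 3 and 0.24 without Saline replicate 2. Among the tested members Prelp also had the smallest relative spread in PLEA after Omd, with a coefficient of variation of 9.94% against 9.21%. Prelp shares 350 exon bases in GENCODE M21 with the opposite-strand lncRNA Gm15851, which had 0 counts in 5 libraries and 4 in PLEA replicate 3.

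Osteoglycin (Ogn), also called mimecan, a class III member, had the tightest Saline values, at 15.4, 16.1 and 13.5 CPM, against 8.02, 5.09 and 3.51 CPM in PLEA. The lowest Saline library was above the highest PLEA library by more than the range within either group. The log2 fold change was -1.44 (SE 0.29). Leaving out single libraries gave -1.81 (without PLEA replicate 1) to -1.19 (without PLEA replicate 3). Podocan (Podn), the class V member, was at 5.74, 2.42 and 3.69 CPM in Saline and 6.57, 4.07 and 4.52 CPM in PLEA, with overlapping groups. Its log2 fold change was 0.36 (SE 0.35), 0.09 without Saline replicate 2 and 0.74 without Saline replicate 1. In the deposited table its span overlaps that of Scp2 on the same strand over 52607 bases. Scp2 had 1283 to 1720 counts per library against 42 to 114 for Podn, and their exons share 0 bases in GENCODE M21.

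**Figure D1:**
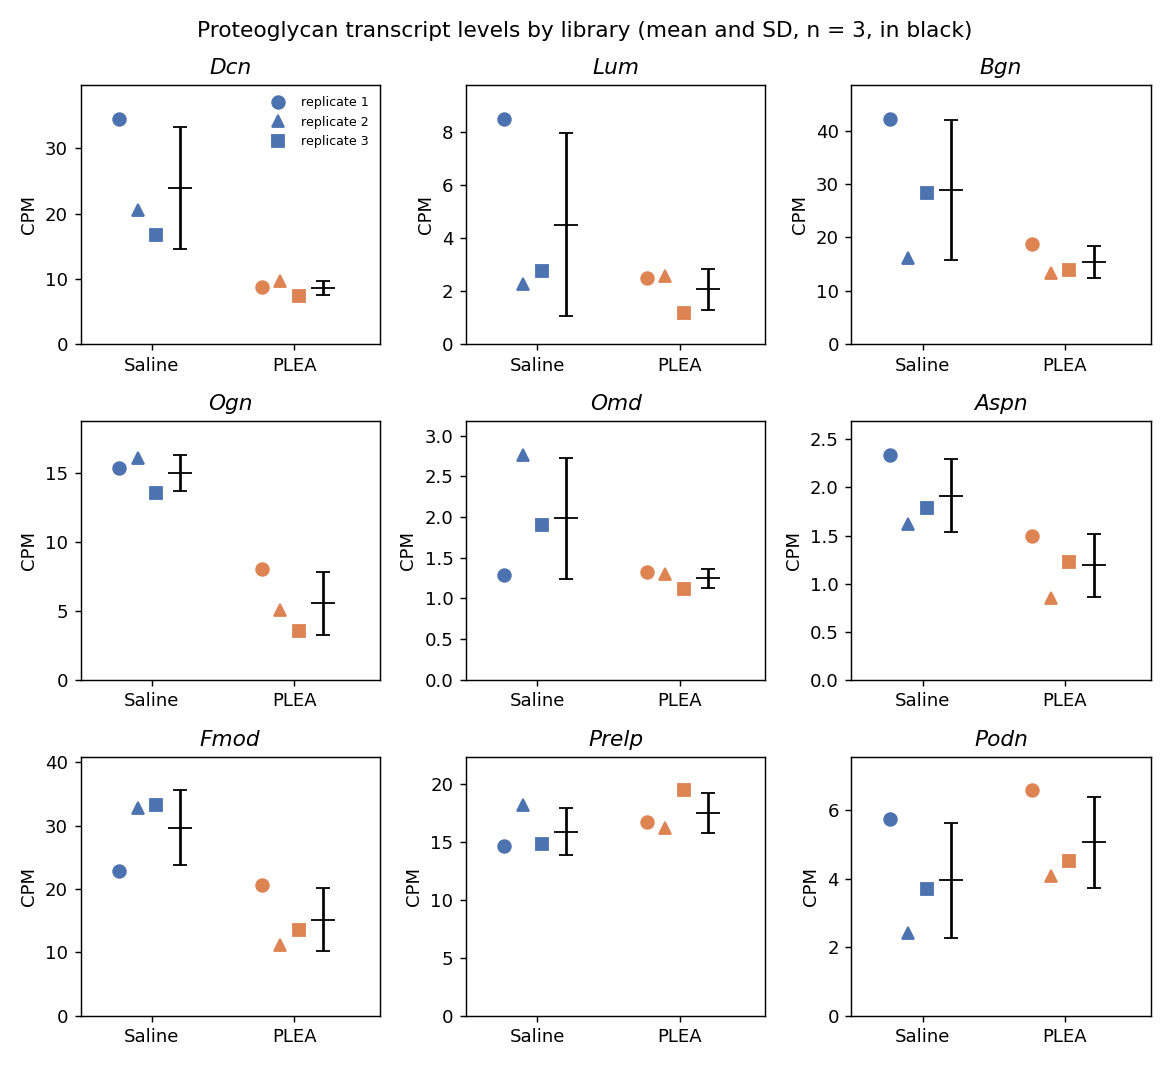
Level of each tested proteoglycan gene in CPM (vertical axis, from 0) by treatment group, where each symbol is a library and the black bar is the mean with SD (n = 3). Dcn, Ogn, Aspn and Fmod show separate groups, Saline replicate 1 stands high for Dcn, Lum and Bgn, and Prelp and Podn overlap.

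Across the family, 9 of 10 genes passed the filter, and 7 of the 9 had negative log2 fold changes, against 51.0% of 17584 tested genes. Their median was -0.91, against -0.01 over all tested genes, and it was -0.52 without Saline replicate 1. The edgeR quasi-likelihood test called 0 of the 9 lower and 0 higher at an adjusted p under 0.05, where it called 0% of tested genes in either direction. The smallest adjusted p among them was 0.818. At an unadjusted p under 0.05 it placed 4 lower (Dcn, Ogn, Fmod and Bgn) against 3.58% of tested genes and 0 higher against 2.28%. DESeq2 called Dcn (adjusted p = 0.00101) and Ogn (adjusted p = 0.00473) lower, against 0.238% of genes with an adjusted p there, and 0 members higher against 0.0258%. Without the filter on low counts edgeR also called Dcn and Ogn lower (adjusted p = 0.0133 and 0.0309), against 0.0907% of 34187 genes, and limma voom called 0. Groups were separate for 4 members with PLEA lower (Dcn, Ogn, Fmod and Aspn) against 5.54% of tested genes, and for 0 with PLEA higher against 5.16%. The family was chosen with this contrast known, so these shares are printed for reference and carry no support.

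**Figure D2:**
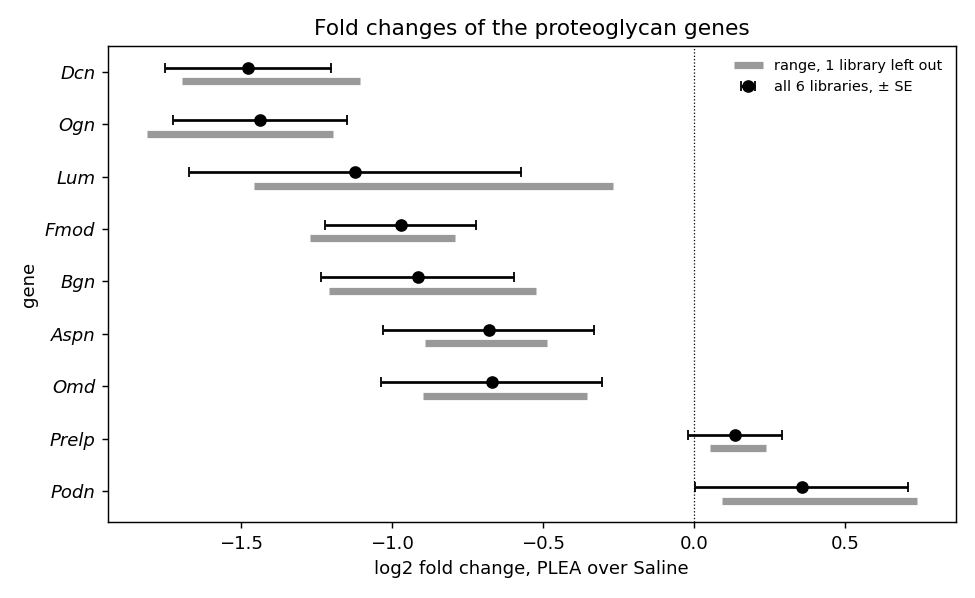
Log2 fold change of PLEA over Saline (horizontal axis) for the 9 tested proteoglycan genes, with points and bars for the estimate and its SE and grey bands for the range when 1 library is left out. Dcn and Ogn stay below -1 in every such fit, while Lum reaches -0.27.

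The members did not share a single pattern among the Saline libraries. Saline replicate 1 was the highest of all 6 libraries for 4 of the 9 tested members, Dcn, Lum, Bgn and Aspn. Saline replicate 2 was the highest for Ogn and Omd and Saline replicate 3 for Fmod. Within Saline the highest value was 3.77 times the lowest for Lum and 2.62 times for Bgn, but 1.19 times for Ogn and 1.24 times for Prelp. In PLEA the corresponding ratio was 2.28 for Ogn and 1.30 for Dcn. The lowest library was PLEA replicate 3 for 4 members and PLEA replicate 2 for 3.

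The make-up of the family's transcripts differed between the groups. Prelp made up 11.2%, 16.3% and 13.4% of the summed CPM per kilobase of the 10 genes in Saline and 20.6%, 27.0% and 31.6% in PLEA. Podn made up 3.71%, 1.84% and 2.83% in Saline and 6.84%, 5.75% and 6.23% in PLEA. In both cases every PLEA library had a larger share than every Saline library, although their own CPM values overlapped. The family was chosen with this contrast known, and its summed level was lower in PLEA. A gene with like CPM in both groups therefore has a larger share in PLEA by construction. The share of Ogn was 18.1% ± 2.01 (SD, n = 3) in Saline and 11.3% ± 2.96 (SD, n = 3) in PLEA. The mean share of Fmod was 28.1% in Saline, the largest there, and 24.1% in PLEA, where that of Prelp was 26.4%, and over the 6 libraries Fmod had 26.1%. Bgn kept a similar share, at 14.3% ± 5.34 and 13.4% ± 0.261 (SD, n = 3 each). Summed CPM of the family was 148, 113 and 117 in Saline and 85.2, 64.1 and 65.9 in PLEA, with all PLEA libraries below all Saline libraries.

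**Figure D3:**
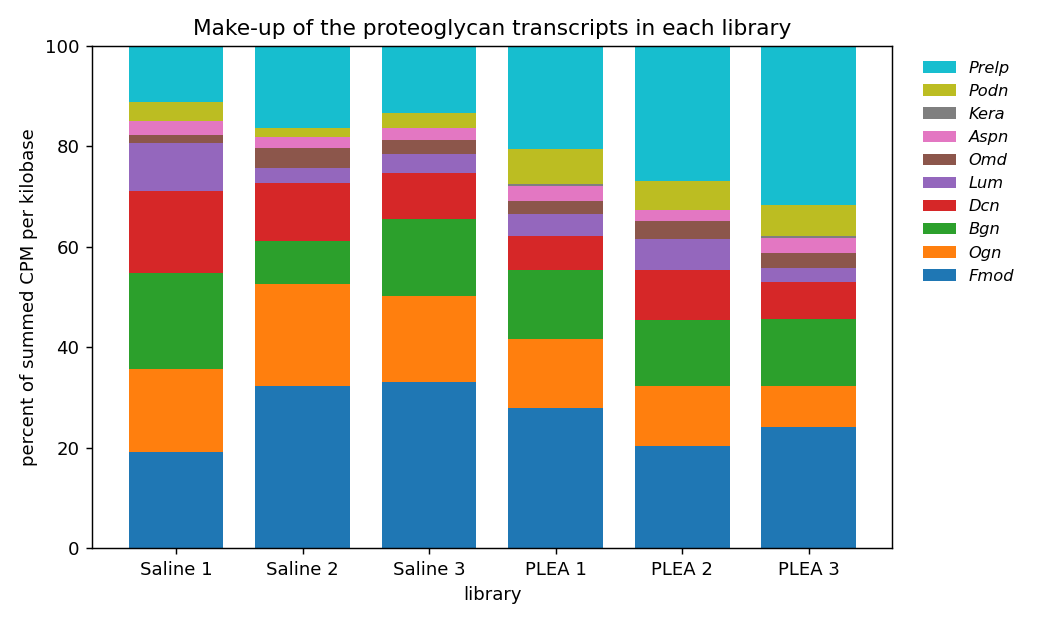
Share of each proteoglycan gene in the summed CPM per kilobase of the 10 genes (vertical axis, percent) in each of the 6 libraries. The Prelp segment spans 11.2% to 16.3% in the Saline libraries and 20.6% to 31.6% in the PLEA libraries.

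Enzymes that build the sugar chains of these proteins had smaller median differences than the members, though most were negative too. Of 26 tested genes of chondroitin and dermatan sulfate synthesis, 0 passed the adjusted edgeR threshold and the median log2 fold change was -0.08. Of these, 20 had negative log2 fold changes, against 51.0% of all tested genes. At an unadjusted edgeR p under 0.05, 1 gene was lower and 2 higher, against 3.58% and 2.28% of all tested genes. The kinase gene Fam20b, which phosphorylates the linker sugar, was at -0.16 (SE 0.14), the first linker enzyme Xylt1 at -0.05 (SE 0.16) and the sulfotransferase Chst11 at 0.03 (SE 0.15). The gene lower at that level was Slc26a2, which imports sulfate, at -0.57 (SE 0.20), and the others were Chpf and Chsy3, which lengthen the chain, at 0.34 (SE 0.14) and 0.37 (SE 0.16). Those 3 were named after their values were seen. Among 10 genes of keratan sulfate synthesis 0 passed, 6 were negative and 1 was lower at an unadjusted p under 0.05, with a median of -0.07. Its most abundant genes, the sulfotransferases Chst1 and Chst2 and the sialyltransferase St3gal2, were at 0.36 (SE 0.20), -0.13 (SE 0.24) and -0.19 (SE 0.14).

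Of 18 tested collagens and other fibril partners, 14 had negative log2 fold changes and 4 had positive ones. None passed in edgeR, and the median log2 fold change was -0.41, or -0.64 without PLEA replicate 3. At an unadjusted edgeR p under 0.05, 6 were lower and 1 higher, against 3.58% and 2.28% of all tested genes. DESeq2 called 3 lower, against 0.238% of genes with an adjusted p there. These were Col1a2 at -1.05 (SE 0.22), Col1a1 at -1.45 (SE 0.35) and Col3a1 at -1.69 (SE 0.43) in edgeR. They encode fibrillar collagen and were named after their values were seen. Of the most abundant, Col6a1, a chain of beaded-filament collagen VI, was at 0.46 (SE 0.46), with 32.5 CPM in Saline replicate 2 against 119 to 175 elsewhere. The adhesive glycoprotein gene Fn1 was at -0.97 (SE 0.32), or -0.47 without Saline replicate 1, and Col12a1, a fibril-associated collagen, at -0.10 (SE 0.27). Col6a3, another collagen VI chain and the gene higher at that level, had 0.69 (SE 0.23) and was named after its values were seen.

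Receptors, ligands and processing enzymes were nearer 0. Over 23 tested receptors and signalling partners 0 passed and 19 had negative log2 fold changes, against 51.0% of all tested genes. Their median was -0.21, or -0.08 without Saline replicate 1. At an unadjusted edgeR p under 0.05, 3 were lower, against 3.58% of all tested genes. The endocytic receptor Lrp1, which takes up decorin, was at -0.10 (SE 0.15), and the receptor tyrosine kinases Erbb4 and Igf1r at -0.21 (SE 0.18) and -0.03 (SE 0.11). Of 10 tested proteases and their helpers 0 passed, 8 were negative and 1 was lower at that level. Their median was -0.26, or -0.13 without Saline replicate 1. Bmp1, which removes the propeptides of biglycan and of collagens, was at 0.10 (SE 0.28), and the metalloproteases Adamts4 and Adamts1 at -0.11 (SE 0.23) and -0.31 (SE 0.35). Other family genes and close relatives had a median of 0.06 over 6 tested of 9 listed, or -0.22 without Saline replicate 1. Of the 6, 2 were negative and 0 passed. Chadl, which binds collagen in cartilage, was at 0.12 (SE 0.18), Ecm2, a relative with leucine-rich repeats, at -0.44 (SE 0.26) and epiphycan (Epyc) at 0.56 (SE 0.40).

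**Figure D4:**
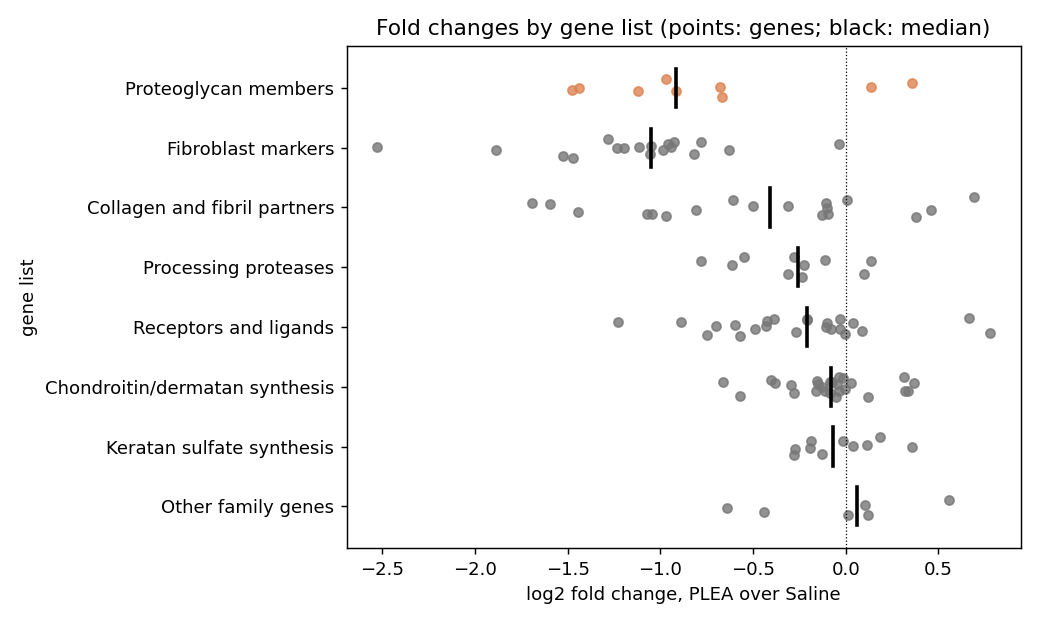
Log2 fold change of PLEA over Saline (horizontal axis) for each tested gene of the proteoglycan family and of 7 other lists, with the median of each list in black. The family's median is -0.91 and that of the fibroblast markers -1.05 (-0.52 and -0.98 without Saline replicate 1), and the synthesis lists lie near 0.

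Markers of meningeal and perivascular fibroblasts had negative log2 fold changes, as 7 of the 9 tested members did. The list had 19 genes, of which 18 were tested and 0 were at 0 counts in all libraries. All 18 had negative log2 fold changes with a median of -1.05, and 0 passed in edgeR. At an unadjusted edgeR p under 0.05, 15 were lower, against 3.58% of all tested genes. DESeq2 called 7 lower, against 0.238% of genes with an adjusted p there. Negative values in every tested gene were not particular to this list, as all 8 astrocyte and all 8 microglia markers had them too. The fibroblast list was written knowing that some of its genes, such as Aldh1a2, had low values in PLEA. The list's direction is therefore not independent evidence. Its most abundant gene, Pdgfra, which oligodendrocyte precursors also express, was at -0.04 (SE 0.11), and the next, the growth factor binder Igfbp2, at -0.96 (SE 0.56), or -0.12 without Saline replicate 1. Summed CPM of the list was 237 to 314 in Saline and 140 to 184 in PLEA, and without Pdgfra, an alternative added after seeing the data, the Saline mean was 2.14 times the PLEA mean. The part of fibroblast RNA content in the members' values was not tested.

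Members were also set against the summed CPM of those markers, as a description. Since the list was chosen knowing that its genes were low in PLEA, a gene with like CPM in both groups has a higher percentage in PLEA by construction. So does a gene whose CPM is lower in PLEA by less than the marker sum is. The share of all tested genes with separate percentages was not computed, so counts of separate members carry no support. Prelp was at 4.67%, 7.26% and 6.26% of the summed marker CPM in Saline and 9.10%, 11.6% and 13.1% in PLEA. The Saline libraries had Podn at 1.83%, 0.968% and 1.56%, and the PLEA libraries at 3.58%, 2.91% and 3.05%. Both were higher in every PLEA library. Dcn was at 11.0%, 8.23% and 7.04% in Saline and 4.77%, 6.87% and 5.01% in PLEA, also without overlap. With Pdgfra left out of the sum, the groups of Dcn overlapped (Saline 14.0%, 10.9% and 9.72%, PLEA 7.03%, 13.2% and 8.60%). The groups of Ogn were separate with all markers (5.68% ± 0.761 and 3.46% ± 1.01, SD, n = 3 each) and overlapped without Pdgfra (7.54% ± 1.18 and 5.83% ± 1.55). Those of Prelp (8.06% ± 1.91 in Saline, 19.4% ± 5.17 in PLEA) and Podn (1.92% ± 0.558 and 5.37% ± 0.197) stayed separate without Pdgfra. Aspn, which overlapped with all markers, was then also separate and higher in PLEA (0.947% ± 0.0936 and 1.26% ± 0.139), and 0 members were separate and lower. Yet the CPM of Aspn itself was lower in every PLEA library. Its Saline mean was 1.61 times its PLEA mean, against 2.14 times for the marker sum without Pdgfra. Lum, Bgn, Omd and Fmod overlapped under both sums.

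**Figure D5:**
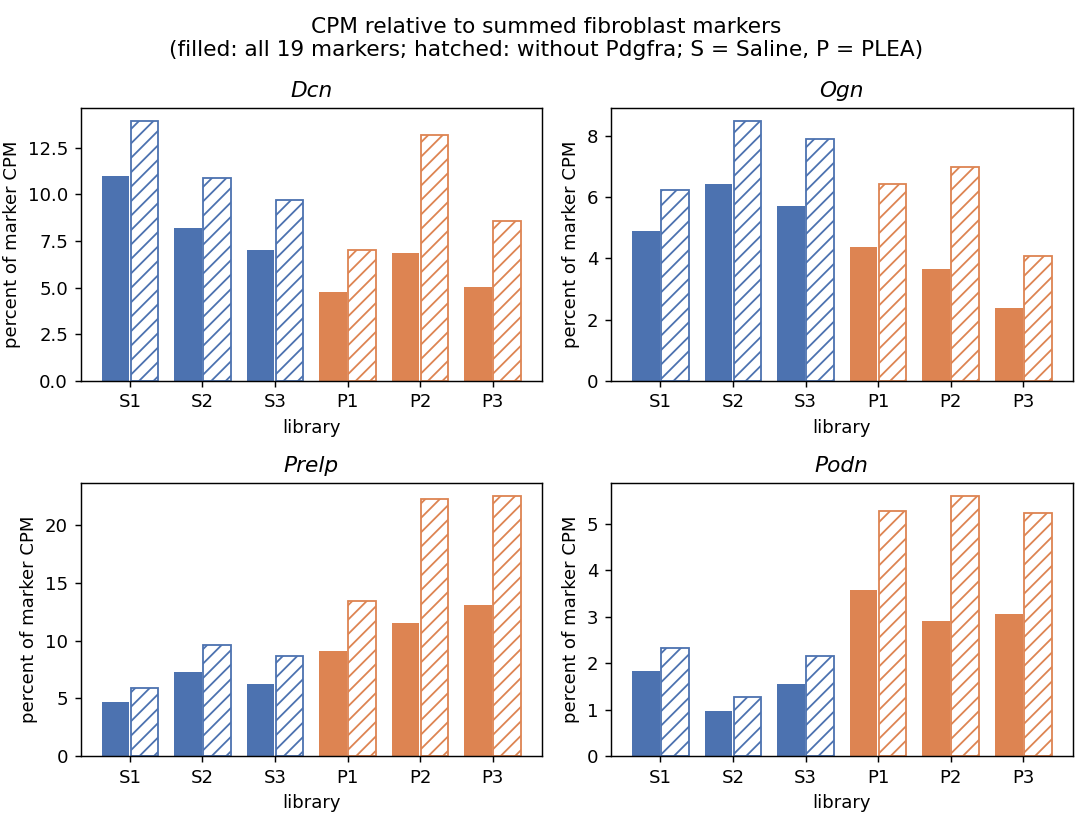
CPM of Dcn, Ogn, Prelp and Podn as a percentage of the summed CPM of fibroblast markers (vertical axis) in each library, with filled bars for all 19 markers and hatched bars without Pdgfra. Prelp and Podn are higher in every PLEA library under both sums, whereas the separation of Dcn and Ogn is lost without Pdgfra.

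Markers of other cell types also differed in level between libraries. Median log2 fold changes were -0.35 for mural cells (led by Rgs5 and Vtn), -0.21 for endothelial cells (Slc2a1 and Flt1) and -0.54 for astrocytes (Slc1a2 and Gfap). They were -0.74 for microglia (Csf1r) and -1.04 over 3 tested of 9 listed genes for the infiltrating myeloid list (Lyz2 and Mrc1). Without Saline replicate 1 the medians were, in that order, -0.15, 0.13, -0.17, -0.23 and -0.42. Negative log2 fold changes numbered, in the same order, 8 of 9, 6 of 10, 8 of 8, 8 of 8 and 3 of 3. The share over all tested genes was 51.0%. At an unadjusted edgeR p under 0.05, 2, 3, 4, 2 and 2 were lower, against 3.58% of all tested genes. DESeq2 called 0 in each of these lists. Of the striatal markers 0 of 9 were negative. Whether the myeloid list reads infiltrating or resident cells was not tested. Cortical neurons were at 0.04 (-0.21 without PLEA replicate 1), striatal neurons at 0.51 (0.11 without Saline replicate 2), and oligodendrocytes at -0.21 (-0.05 without Saline replicate 2). Bone and cartilage markers were at -0.27 over 5 tested of 10 listed genes, with -0.61 without Saline replicate 1 and -0.05 without Saline replicate 2. Red blood cell markers were at 0.52 over 3 tested genes, with 0.04 without Saline replicate 2 and 1.24 without Saline replicate 3, and skeletal muscle at 0.18 over 4, with -1.2e-05 without Saline replicate 3. Summed CPM of bone and cartilage markers was 23.3 to 29.1 in Saline and 17.0 to 19.8 in PLEA. The choroid plexus median was 0.51, and -0.18 without PLEA replicate 3, in which Ttr, a choroid plexus transport protein, was at 280 CPM against at most 5.54 CPM elsewhere. In edgeR 0 genes of these lists passed, and the part of these cells in the members' values was not tested.

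The genes whose profile over the 6 libraries was most like the mean profile of the 9 tested members were searched among 13049 other genes. That mean, and the profile of Dcn, carry the contrast by which the family was chosen. Genes near them are therefore lower in PLEA by construction, and carry no support. The nearest were the protease inhibitor gene Serpinb1a, at a root mean square difference of 0.07 in log2 CPM, the caveolar coat gene Cav1 at 0.09, AW047730 at 0.11, Arhgap22 at 0.11 and Pkib, an inhibitor of protein kinase A, at 0.11. Cav1 was at 21.9, 14.2 and 15.2 CPM in Saline and 11.9, 10.2 and 8.26 CPM in PLEA. Nearest to Dcn alone were the interferon-induced gene Ifit1 at 0.22, the neuropeptide receptor gene Qrfpr at 0.24 and Aldh1a2, which makes retinoic acid in meninges, at 0.28. Ifit1 and Qrfpr had low levels, at 1.34 to 4.39 and 1.24 to 4.10 CPM over the 6 libraries. Of the members, Aspn lay nearest to the family mean at 0.17, and Podn and Lum lay farthest at 0.60 and 0.54.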

How the data were processed

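RNA was sequenced from 6 libraries, 3 Saline and 3 PLEA, grouped by their titles. The authors deposited raw read counts per gene with gene lengths in bases. Per the labels' protocols the libraries came from a SMARTer mRNA kit, and builds GRCm38 and mm10 appear in the submitters' processing notes. How reads were aligned and counted, and whether by strand, is not given in the sources used here. Of 10 members in GENCODE M21, an annotation of GRCm38, 0 had the deposited start and end, so deposited coordinates carry no build.

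Group was the single term of a quasi-likelihood model of the counts in edgeR 4.0.16 (R 4.3.3), with TMM factors, over the 17584 genes that filterByExpr kept, with Benjamini-Hochberg adjustment and a threshold of 0.05. A standard error is the log2 fold change over the square root of F. CPM values are counts over the library totals of all genes, scaled by edgeR's TMM factors from the filtered genes. CPM per kilobase divides them by the deposited gene length. The edgeR procedure was also run on simulated counts, and the share of changes it recovered is not given here. Alternatives were DESeq2 1.42.0, limma 3.58.1 (voom), RLE and upper-quartile factors, no filter, CPM of at least 1 in 3 libraries, a replicate block and leaving out each library.

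The members and the 19 gene lists were chosen with earlier results of these data known. All members were named, with the most abundant 3 genes of each pathway list and up to 2 of the most abundant of each marker list. Genes named outside this rule are said to have been chosen after their values were seen. Profiles were compared on log2 CPM (prior count 2), among genes whose mean reached 1 on that scale, predicted genes left out. No 2 libraries agreed within counting noise (chi-square per degree of freedom of at least 13.1), and each was treated as 1 sample. By that measure the Saline libraries differed from one another by 29.2 to 54.0. Saline replicate 3 differed from the PLEA libraries by 13.1 to 17.8, less than from either other Saline library.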

Additional observations from a re-analysis of the deposited data

How the results depend on the processing

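Of 117 log2 fold changes of the 9 tested members under the alternatives, 0 changed sign, and the 4 that passed the threshold were Dcn and Ogn with DESeq2 and without the filter. Genes higher and lower in PLEA numbered 0 and 0, 4 and 37 with DESeq2 (2 members lower) and 7 and 31 without the filter (2 members lower), with the cause not tested. Over the 6 fits that each left out a library, the genes called higher ranged from 0 to 0 and those lower from 0 to 1 (1 without Saline replicate 1), with 0 members. The median of the members ranged from -1.10 to -0.52 (without Saline replicate 1), with 0 to 1 members separate with PLEA higher, 4 to 6 with PLEA lower (against 7.68% to 14.7% of all tested genes higher and 8.0% to 13.2% lower in such fits), and 6 to 10 members at the same rank per length. Without division by length 4 members kept their rank. The share of Fmod was 24.7% to 27.5%. With the replicate block 0 genes and 0 members were called and the median was -0.83. Same-numbered libraries had correlations of their deviations of 0.37, 0.17 and -0.02, so the numbers were not taken as pairs, and Saline replicate 3, PLEA replicate 2 and PLEA replicate 3 did not correlate best with their own number. Omd, Aspn and Kera had under 50 counts in every library, which limits their precision. The same holds for Lum, which had 21 to 45 counts in all libraries but Saline replicate 1 (145 counts).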
